A study of Mus musculus with 4 samples.

Results

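Nerve terminals release transmitter by fusing vesicles with the presynaptic membrane, and the 40 genes described here encode the proteins that carry out and regulate that step. They were chosen by name, as genes of vesicles, of the fusion apparatus, of the active zone and of vesicle recycling. Of the 40 genes, 37 had a row among the 14125 genes listed at 7 days post injury (dpi), 30 had one among the 11472 genes listed at 21 dpi, and 29 had one at both time points. SYN1, a synapsin, and DNM1, the neuronal dynamin that pinches off recycled vesicles, had no row at either time point, so no level or ratio is given for them. They enter only the search of upstream sequence below. A missing row is not a measured level of 0, and why rows are missing is not known. SYNJ1, next to SNAP25 in level at 7 dpi, had no row at 21 dpi.

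Male targeted replacement mice, in which the coding region of mouse Apoe is replaced by that of human ApoE3 or ApoE4, received a moderate contusion of 50 kdyne to the mid-thoracic cord, and the spinal segment with the lesion was sequenced. The cohort was 3 to 5 months old. The 4 groups were ApoE3 at 7 dpi, ApoE4 at 7 dpi, ApoE3 at 21 dpi and ApoE4 at 21 dpi. RNA came from 3 mice per group, but the deposited table holds 1 value per gene and group, so no spread between mice can be given, no test was possible and every difference below is a difference between single values. Both genotypes carry a human coding region, so neither is a wild-type mouse, and neither group here is an uninjured control.

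The values are FPKM, reads counted relative to transcript length and to library size, which is meant to allow levels of different genes to be set side by side. The transcript lengths used are not given, so the order of different genes by level is uncertain. The table used here gives no read count per gene, so no counting error is given. The table states the order of the genotypes in a pair of ways that disagree: its comparison names put ApoE3 first, while its numbered sample columns put ApoE4 first. The comparison names were followed. Read by the column numbers, every ApoE3 value below would be the ApoE4 value of the same day and the reverse, and every direction between genotypes would turn around.

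Ratios between genotypes are log2 ratios of ApoE3 to ApoE4 after adding 1 to each FPKM, which understates the differences of genes with low levels. At 7 dpi the median ratio of all genes was 0.0018. At 21 dpi it was -0.42, that is, the typical gene was listed 1.34-fold higher in ApoE4, and the FPKM of all genes summed to 2050300 in ApoE4 against 1513620 in ApoE3. Ratios below are therefore given relative to the median of all genes at the same time point. A gene is counted as past the fold when it lay at least 1.3-fold from that median.

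Release begins with docking and priming of a filled vesicle at the active zone, a dense protein scaffold built of RIM, bassoon, piccolo, ELKS and liprin proteins, where UNC13 proteins make the vesicle ready to fuse. Fusion is driven by the SNARE proteins SNAP25, syntaxin and synaptobrevin, held by complexins and triggered when synaptotagmins bind calcium. In the spinal cord these proteins act in terminals of descending, sensory and local neurons, most of them glutamatergic, GABAergic or glycinergic, and much of the mRNA lies in the cell bodies of local neurons.

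At 7 dpi nearly the whole set was higher in ApoE3. Of the 37 presynaptic genes with a row, 35 lay above the median of all genes and 2 below it, against 7073 above and 7051 below among all genes. The median presynaptic gene had a relative log2 ratio of 0.24, with the middle 50% of genes between 0.18 and 0.29. Relative to the median of a separate list of neuronal soma and axon genes, the direction was gone: 18 were above, 19 below and the median was -0.00036. Past the fold, 5 genes were higher in ApoE3 and 0 in ApoE4, or 13.5% of the set beside 3.76% of all genes higher in ApoE3 and 4.82% higher in ApoE4. These 5 were SNAP25, SYT4, CPLX1, SV2C and SYN3, and all lay between 1.31-fold and 1.35-fold. In bulk tissue, fewer neurons and less of these transcripts per neuron cannot be told apart.

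At 21 dpi the set no longer leaned to 1 genotype once the shift of all genes was removed. Of 30 presynaptic genes with a row, 19 lay above the median and 11 below it, and their median was 0.039. SLC17A7 was past the fold in ApoE3 and CPLX2 in ApoE4, or 3.33% of the set in each direction beside 7.46% and 8.06% of all genes. Relative to the neuronal soma and axon list, 21 lay above and 9 below, and the median was 0.090. With the shift left in, 29 of the 30 genes were listed higher in ApoE4 and the median was -0.38. Then 15 of the 30 passed the fold in ApoE4 and 1 in ApoE3, beside 58.9% and 2.01% of all genes. Between the genotypes at 21 dpi the presynaptic set thus lay close to the background with the shift removed or left in.

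**Figure D1:**
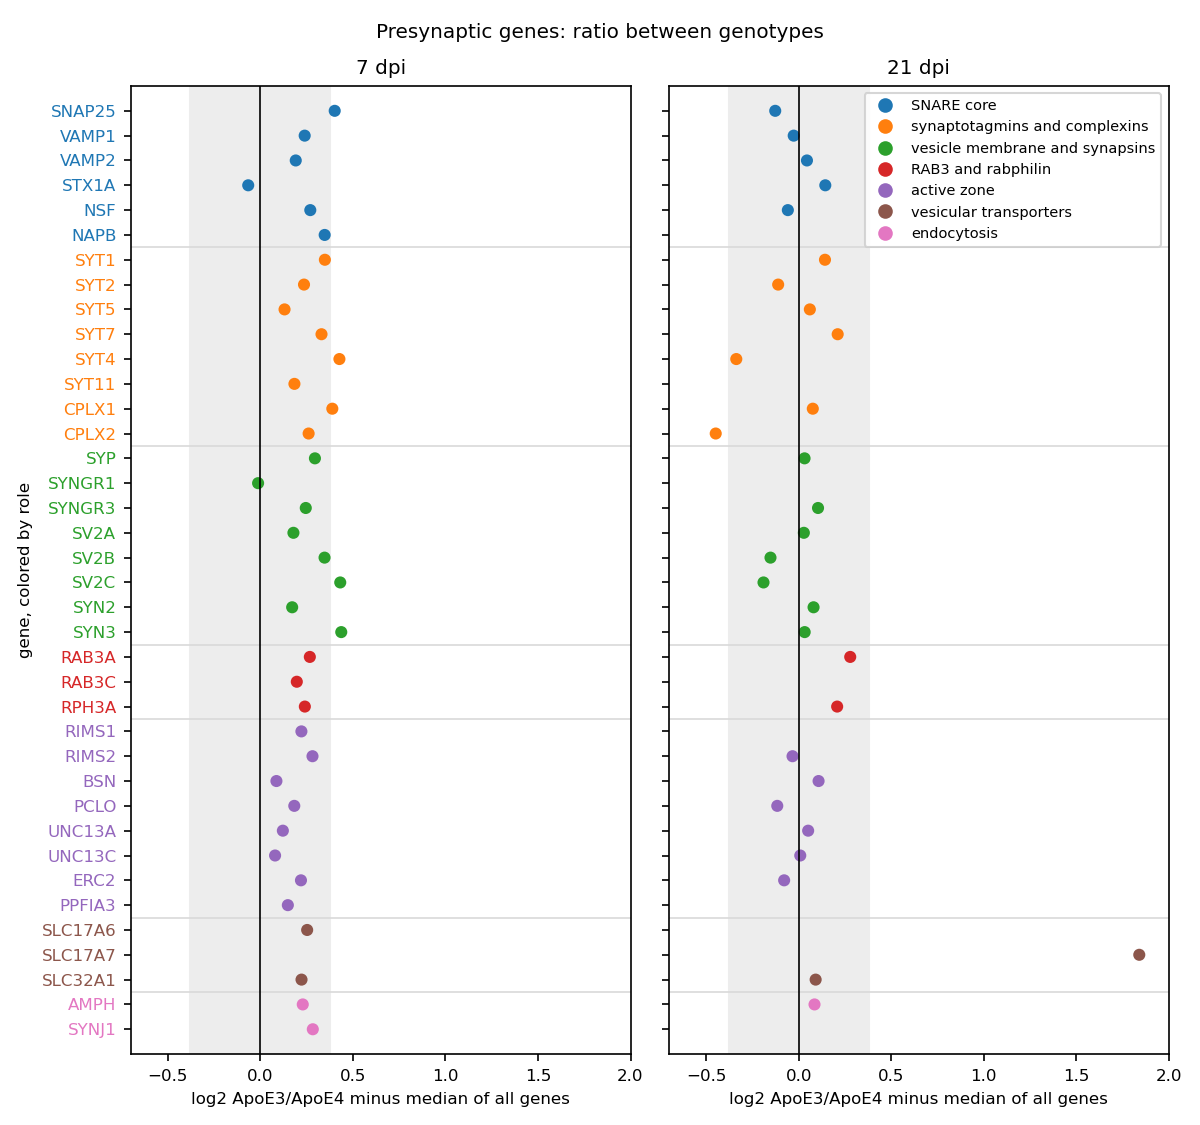
Log2 ratio of ApoE3 to ApoE4 relative to the median of all genes, 1 point per presynaptic gene, at 7 dpi (left) and 21 dpi (right), coloured by role. The gray band spans 1.3-fold either way. At 7 dpi 35 of 37 genes lie right of 0, whereas at 21 dpi 19 of 30 do, and with the shift of all genes left in 29 of 30 would lie left of 0 at 21 dpi.

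SNAP25, the SNARE protein of the plasma membrane that supplies a pair of the helices of the fusion complex, was the most abundant gene of the set. It was listed at 3366 FPKM in ApoE3 and 2545 FPKM in ApoE4 at 7 dpi, and at 5336 FPKM in ApoE3 and 7812 FPKM in ApoE4 at 21 dpi. ApoE3 was thus higher at 7 dpi, with a relative log2 ratio of 0.40, and ApoE4 was higher at 21 dpi, where the relative ratio was -0.13. SNAP25 made up 34.2% to 38.8% of the summed FPKM of the 29 genes listed at both time points, depending on the group.

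The vesicle SNAREs are the synaptobrevins VAMP1 and VAMP2. VAMP1, the main form of spinal and motor terminals, was listed at 475 FPKM in ApoE3 and 402 FPKM in ApoE4 at 7 dpi, and at 1022 FPKM and 1397 FPKM at 21 dpi. VAMP2, the main form of the forebrain, was lower in every group, at 126 FPKM in ApoE3 and 110.4 FPKM in ApoE4 at 7 dpi and at 219.9 FPKM and 286 FPKM at 21 dpi. Both had positive relative ratios at 7 dpi, 0.24 for VAMP1 and 0.19 for VAMP2, and lay within 1.04-fold of the median at 21 dpi.

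STX1A, the syntaxin that completes the complex, was 1 of 2 genes of the set that lay below the median at 7 dpi. Its levels were 26.2 FPKM in ApoE3 and 27.4 FPKM in ApoE4 at 7 dpi, and 51.9 FPKM and 63.2 FPKM at 21 dpi. The relative ratio was -0.066 at 7 dpi and 0.14 at 21 dpi, the opposite signs to SNAP25. NSF, the ATPase that takes used SNARE complexes apart, was listed at 155 FPKM in ApoE3 and 129 FPKM in ApoE4 at 7 dpi and at 203 FPKM and 284 FPKM at 21 dpi. NAPB, the neuronal SNAP adaptor that brings NSF to the complex, had a row at 7 dpi only, at 126 FPKM in ApoE3 and 98.8 FPKM in ApoE4. Over the SNARE group the median relative ratio was 0.25 at 7 dpi over 6 genes and -0.027 at 21 dpi over 5.

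Synaptotagmins and complexins set the timing of release. All 8 lay above the median at 7 dpi, with relative ratios of 0.13 to 0.43 and a median of 0.30, and 4 of 7 did at 21 dpi. SYT1 and SYT2 are the fast calcium sensors, SYT2 being typical of the spinal cord and hindbrain. SYT1 was listed at 336 FPKM in ApoE3 and 264 FPKM in ApoE4 at 7 dpi, and at 419 FPKM and 509.6 FPKM at 21 dpi. SYT2 was listed at 222 FPKM and 188 FPKM at 7 dpi, and at 289.8 FPKM and 420.0 FPKM at 21 dpi. Relative to the median, SYT1 stayed on the ApoE3 side at 21 dpi with 0.14, whereas SYT2 lay on the ApoE4 side with -0.11.

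SYT7, a slower sensor with high affinity for calcium, had 253 FPKM in ApoE3 and 201 FPKM in ApoE4 at 7 dpi, and 306 FPKM and 355 FPKM at 21 dpi. Its relative ratios, 0.33 and 0.21, had the same sign at both time points. SYT5 was less abundant, at 53.9 FPKM and 49.1 FPKM at 7 dpi and 114 FPKM and 147 FPKM at 21 dpi, and lay within 1.1-fold of the median both times. SYT11, which does not bind calcium and restrains membrane retrieval, was the most abundant of the family, with 924 FPKM in ApoE3 and 812 FPKM in ApoE4 at 7 dpi, and had no row at 21 dpi.

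SYT4, a synaptotagmin of dense-core vesicles that is induced by activity, had the largest difference between its ratios at the 2 time points. It was listed at 81.0 FPKM in ApoE3 and 59.9 FPKM in ApoE4 at 7 dpi, and at 54.0 FPKM and 92.2 FPKM at 21 dpi. The ApoE3 value was thus the higher at 7 dpi, 1.34-fold from the median, and the lower at 21 dpi, 1.26-fold from the median in the other direction. CPLX2 came next. This complexin was listed at 149.6 FPKM in ApoE3 and 125 FPKM in ApoE4 at 7 dpi, and at 229 FPKM and 419.9 FPKM at 21 dpi, with relative ratios of 0.26 and -0.45. At 21 dpi it was the only presynaptic gene past the fold in ApoE4, at 1.36-fold. CPLX1, the complexin that predominates in the cord, was listed at 337 FPKM and 257 FPKM at 7 dpi, 1.31-fold from the median, and at 641 FPKM and 816 FPKM at 21 dpi, 1.05-fold from it on the same side. The paired complexins thus parted at 21 dpi, with CPLX1 at the background of all genes and CPLX2 to the ApoE4 side of it.

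The proteins of the vesicle membrane were also mostly to the ApoE3 side at 7 dpi, 7 of 8 with a median of 0.27. Synaptophysin, SYP, the standard marker of vesicles, was listed at 188 FPKM in ApoE3 and 153 FPKM in ApoE4 at 7 dpi, and at 469 FPKM and 616 FPKM at 21 dpi. SYNGR1, a synaptogyrin, was the exception, with 491 FPKM in ApoE3 and 495 FPKM in ApoE4 at 7 dpi, a relative ratio of -0.013, and no row at 21 dpi. SYNGR3, another synaptogyrin, had 34.1 FPKM and 28.6 FPKM at 7 dpi and 58.7 FPKM and 73.5 FPKM at 21 dpi. The relative ratio of SYNGR3 at 7 dpi was 0.24, on the ApoE3 side.

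The SV2 proteins are vesicle glycoproteins, of which SV2A occurs in nearly all terminals and SV2C in fewer. At 7 dpi SV2A was listed at 84.7 FPKM in ApoE3 and 74.6 FPKM in ApoE4, and SV2B at 108 FPKM and 84.8 FPKM. SV2C had 79.9 FPKM in ApoE3 and 59.0 FPKM in ApoE4, the only form past the fold. At 21 dpi SV2A was listed at 181 FPKM and 238 FPKM, SV2B at 135 FPKM and 202 FPKM, and SV2C at 63.1 FPKM and 97.1 FPKM. Relative ratios at 21 dpi were 0.028 for SV2A, -0.15 for SV2B and -0.19 for SV2C, the reverse of their order at 7 dpi, when they were 0.18, 0.35 and 0.43.

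Synapsins tether vesicles to the cytoskeleton. SYN2 was listed at 125 FPKM in ApoE3 and 111 FPKM in ApoE4 at 7 dpi, and at 211 FPKM and 267 FPKM at 21 dpi. SYN3 had 67.0 FPKM and 49.2 FPKM at 7 dpi and 38.5 FPKM and 50.8 FPKM at 21 dpi. With a relative ratio of 0.44 it was the farthest of the set to the ApoE3 side at 7 dpi, and at 21 dpi it lay at 0.033. The value of SYN3 is uncertain, because TIMP3 lies within it on the opposite strand and shares 1733 exonic bases with it in GENCODE M21, and the library kit does not mark strand. TIMP3 was listed at 43.8 FPKM in ApoE3 and 47.9 FPKM in ApoE4 at 7 dpi, a relative ratio of -0.13, and at 43.6 FPKM and 43.4 FPKM at 21 dpi, where its relative ratio was 0.43.

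RAB3A, the vesicle GTPase that recruits effectors for docking, had 646 FPKM in ApoE3 and 536 FPKM in ApoE4 at 7 dpi, and 2179 FPKM and 2409 FPKM at 21 dpi. RPH3A, rabphilin, binds RAB3 and calcium, and had 765 FPKM and 647 FPKM at 7 dpi and 1401 FPKM and 1626 FPKM at 21 dpi. RAB3A and RPH3A kept nearly the same relative ratios at both time points, 0.27 and 0.28 for RAB3A and 0.24 and 0.21 for RPH3A. RAB3C had a row at 7 dpi only, with 88.1 FPKM in ApoE3 and 76.7 FPKM in ApoE4.

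The 8 active zone genes lay above the median at 7 dpi without exception, by less than those of the vesicle groups: their median was 0.17 and none passed the fold. RIMS2, a RIM scaffold, was the most abundant, with 793 FPKM in ApoE3 and 651 FPKM in ApoE4 at 7 dpi, and 629 FPKM and 864 FPKM at 21 dpi. RIMS1 was far lower, at 60.9 FPKM and 52.0 FPKM, and had no row at 21 dpi. The giant scaffolds were among the lowest of the set. BSN, bassoon, was listed at 20.9 FPKM and 19.6 FPKM at 7 dpi and at 24.0 FPKM and 30.1 FPKM at 21 dpi. PCLO, piccolo, was listed at 64.3 FPKM and 56.4 FPKM at 7 dpi and at 67.1 FPKM and 98.0 FPKM at 21 dpi.

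The priming factor UNC13A had 207 FPKM in ApoE3 and 190.4 FPKM in ApoE4 at 7 dpi, and 206 FPKM and 268 FPKM at 21 dpi. UNC13C, its cerebellar relative, had 89.0 FPKM and 84.1 FPKM at 7 dpi and 81.5 FPKM and 109 FPKM at 21 dpi. ERC2, an ELKS scaffold, had 267 FPKM and 229 FPKM at 7 dpi and 225 FPKM and 319.6 FPKM at 21 dpi. PPFIA3, a liprin, had 86.9 FPKM and 78.2 FPKM at 7 dpi and no row at 21 dpi. At 21 dpi 3 of 6 active zone genes lay above the median and 3 below, all within 1.3-fold.

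The transporters that fill vesicles mark the transmitter. SLC32A1 fills inhibitory vesicles with GABA and glycine, and had 78.2 FPKM in ApoE3 and 66.9 FPKM in ApoE4 at 7 dpi, and 129.7 FPKM and 163 FPKM at 21 dpi. SLC17A6, the vesicular glutamate transporter of spinal neurons, had 59.6 FPKM and 49.8 FPKM at 7 dpi, and no row at 21 dpi. The inhibitory and excitatory transporters had similar relative ratios at 7 dpi, 0.22 and 0.25. SLC17A7, the glutamate transporter of cortical neurons and of myelinated sensory afferents, had no row at 7 dpi. At 21 dpi it was listed at 3.06 FPKM in ApoE3 and 0.519 FPKM in ApoE4, the lowest level of the set and its largest ratio, 3.58-fold from the median.

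Vesicle membrane is recovered by endocytosis. AMPH, amphiphysin, had 55.9 FPKM in ApoE3 and 47.5 FPKM in ApoE4 at 7 dpi, and 91.6 FPKM and 116 FPKM at 21 dpi. SYNJ1, the phosphatase that strips clathrin coats, was listed at 2459 FPKM and 2018 FPKM at 7 dpi, below SNAP25 alone, and had no row at 21 dpi. Both had positive relative ratios at 7 dpi, 0.23 and 0.28.

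**Figure D2:**
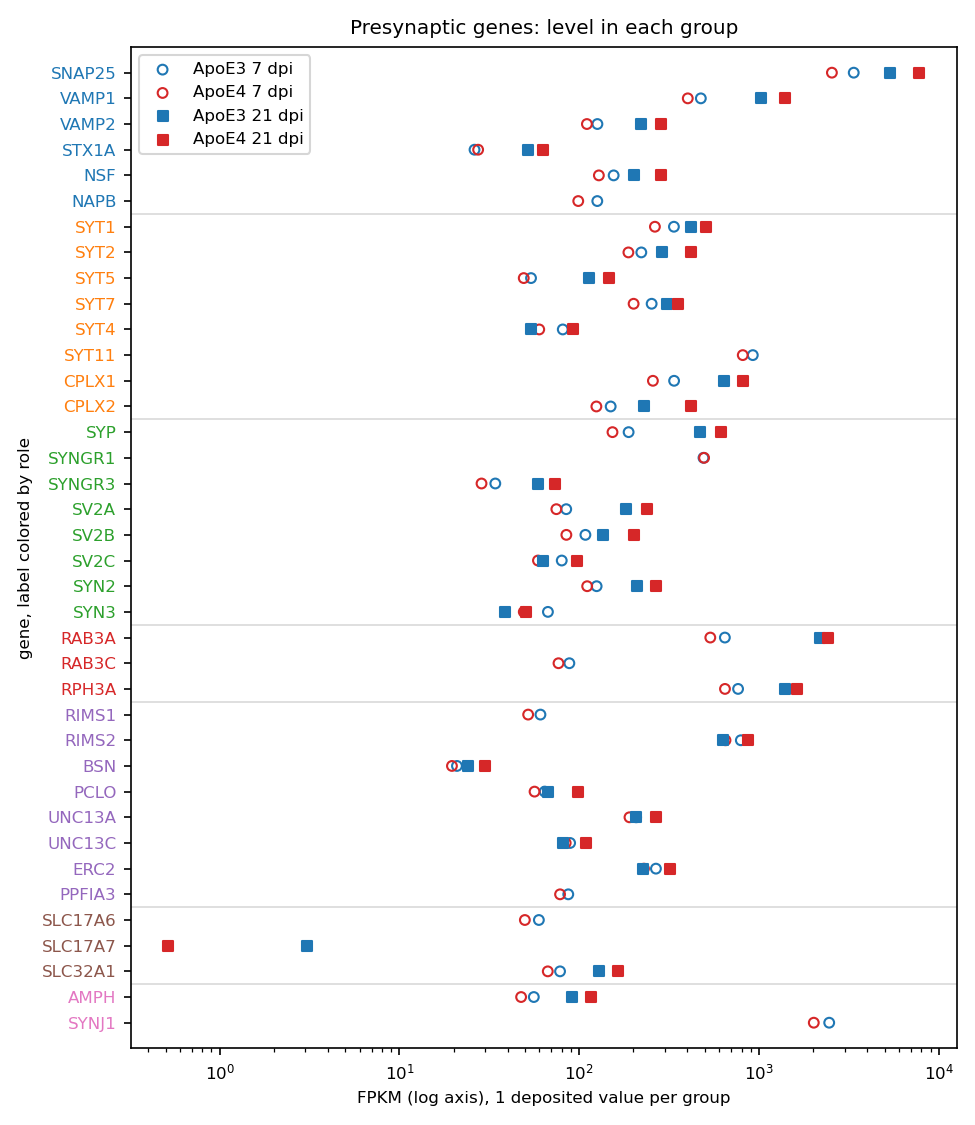
FPKM of each presynaptic gene with a row, on a log axis, with genes grouped by role, 7 dpi as open circles, 21 dpi as filled squares, ApoE3 in blue and ApoE4 in red. Each mark is 1 deposited value, from 0.519 for SLC17A7 in ApoE4 at 21 dpi to 7812 for SNAP25 in ApoE4 at 21 dpi. At 7 dpi the ApoE3 mark lies to the right for 35 of 37 genes, and at 21 dpi the ApoE4 mark does for 29 of 30, before the shift of all genes is removed.

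To show what lies upstream of the genes past the fold, the 250 bases before the annotated start were taken from RefSeq for the genes with an entry. Of the 40 genes, 32 had one. SNAP25, VAMP2, SYT4, SYT5, SYT7, SYNGR3, SYN3 and RIMS2 are named only. Each window is written 5′ to 3′ on the strand of its gene, GRCm38.p6, with GC boxes (GGGCGG, or CCGCCC on the other strand) in capitals. CPLX1 lies at chr5:108550028-108550277 on the minus strand, SV2C at chr13:96132578-96132827 on the minus strand, CPLX2 at chr13:54302306-54302555 on the plus strand and SLC17A7 at chr7:45163671-45163920 on the plus strand. GENCODE M21 annotates exons of predicted genes over 197 bases of the CPLX1 window and 99 bases of the CPLX2 window.
CPLX1: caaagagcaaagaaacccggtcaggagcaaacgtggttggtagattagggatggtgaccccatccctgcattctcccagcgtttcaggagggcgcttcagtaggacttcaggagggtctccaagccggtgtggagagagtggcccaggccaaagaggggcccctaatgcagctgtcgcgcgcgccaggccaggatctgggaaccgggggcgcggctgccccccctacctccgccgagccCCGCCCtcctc
SV2C: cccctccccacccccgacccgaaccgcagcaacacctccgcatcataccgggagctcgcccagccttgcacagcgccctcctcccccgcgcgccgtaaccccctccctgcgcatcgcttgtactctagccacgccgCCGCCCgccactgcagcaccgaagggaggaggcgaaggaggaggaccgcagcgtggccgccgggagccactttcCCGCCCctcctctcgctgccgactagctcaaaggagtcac
CPLX2: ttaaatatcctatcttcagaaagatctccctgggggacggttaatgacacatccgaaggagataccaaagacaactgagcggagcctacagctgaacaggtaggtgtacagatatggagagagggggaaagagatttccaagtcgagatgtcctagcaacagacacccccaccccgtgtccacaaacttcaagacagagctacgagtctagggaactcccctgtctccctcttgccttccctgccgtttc
SLC17A7: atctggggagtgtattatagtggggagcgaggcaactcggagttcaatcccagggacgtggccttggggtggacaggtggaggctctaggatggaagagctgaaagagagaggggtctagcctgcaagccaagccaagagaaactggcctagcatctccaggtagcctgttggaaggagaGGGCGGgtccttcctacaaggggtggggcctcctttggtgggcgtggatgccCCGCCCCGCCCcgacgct

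The CPLX1 window holds 1 GC box, that of SV2C 2 and that of SLC17A7 3, of which 2 overlap by their ends, and the CPLX2 window has no match to these letters. A GC box was found for 22 of the 32 presynaptic genes, 68.8%, beside 61.9% of the 11497 genes that have both a window and a row in the table and 35.4% of all 27025 genes with a window. Median GC content was 61.2% for the presynaptic genes and 59.6% for the genes with a row. The 32 include SYN1 and DNM1, which have no row and so are not among the genes with a row. A cyclic AMP response element, TGACGTCA, was found upstream of 1 presynaptic gene, SYN1, or 3.12%. It was found for 1.77% of all genes with a window and 2.95% of genes with a row, and for no presynaptic gene with a row. The left part of the RE1 element bound by the neuronal repressor REST, TTCAGCACC, was searched on both strands. It was found upstream of SYN1 and PPFIA3, 6.25% of the 32, of which only PPFIA3 has a row. The share was 0.348% of all genes with a window and 0.426% of genes with a row. These are matches of letters in short windows, and binding was not measured.

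Other synaptic and neuronal lists give the setting for the ratios at 7 dpi. A list of 56 further presynaptic genes had 51 with a row, of which 46 lay above the median and 5 below, with a median of 0.22. Of these 51, 7 passed the fold in ApoE3 and 1 in ApoE4, or 13.7% and 1.96% of the list beside 3.76% and 4.82% of all genes. Among its most abundant genes were CADPS, a priming factor of dense-core vesicles at 2112 FPKM in ApoE3 and 1837 FPKM in ApoE4, and BIN1, an amphiphysin relative with forms outside neurons, at 1394 FPKM and 1533 FPKM. Postsynaptic genes, with GLRB and DLG4 among the most abundant, had 22 of 25 above the median and a median of 0.20. GRIN1 had a row at 21 dpi only. Neuronal soma and axon genes, with CELF4 and MAP2 among the most abundant, had 18 of 19 above it and a median of 0.24, equal to that of the 37 presynaptic genes to this precision. Relatives of the presynaptic proteins that act in fusion in most cells, led by DNM2, NAPA and STXBP2, had 9 of 22 above it and a median of -0.018. The ratio at 7 dpi was therefore shared by presynaptic, postsynaptic and general neuronal genes, and the widely expressed fusion genes did not have it.

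Lists of other cell types differed between genotypes at 7 dpi as well, and their part in the presynaptic ratios was not tested. Microglia and macrophage genes had 8 of 10 below the median, a median of -0.26, and a summed level of 7725 FPKM in ApoE3 against 9963 FPKM in ApoE4, LYZ2 being the most abundant, followed by CD68 and GPNMB. Fibroblast scar genes, led by COL1A1, COL3A1 and POSTN, had 7 of 7 below it, a median of -0.37, and 743 FPKM against 1007 FPKM. Astrocyte genes, led by GFAP and AQP4, had a median of 0.027 and sums of 17497 FPKM and 17078 FPKM over 8 genes, and ALDOC had a row at 21 dpi only. Oligodendrocyte genes, with MBP and MOBP among the most abundant, had a median of -0.067 and sums of 127134 FPKM and 134299 FPKM. Motor neuron genes, led by ACHE, PRPH and SLC5A7, had 6 of 6 above the median and a median of 0.29, and share SLC18A3 with the list of further presynaptic genes and PRPH and ISL1 with the sensory ganglion list below, so these lists are not separate. None of these lists had a gene listed at 0 at 7 dpi.

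**Figure D3:**
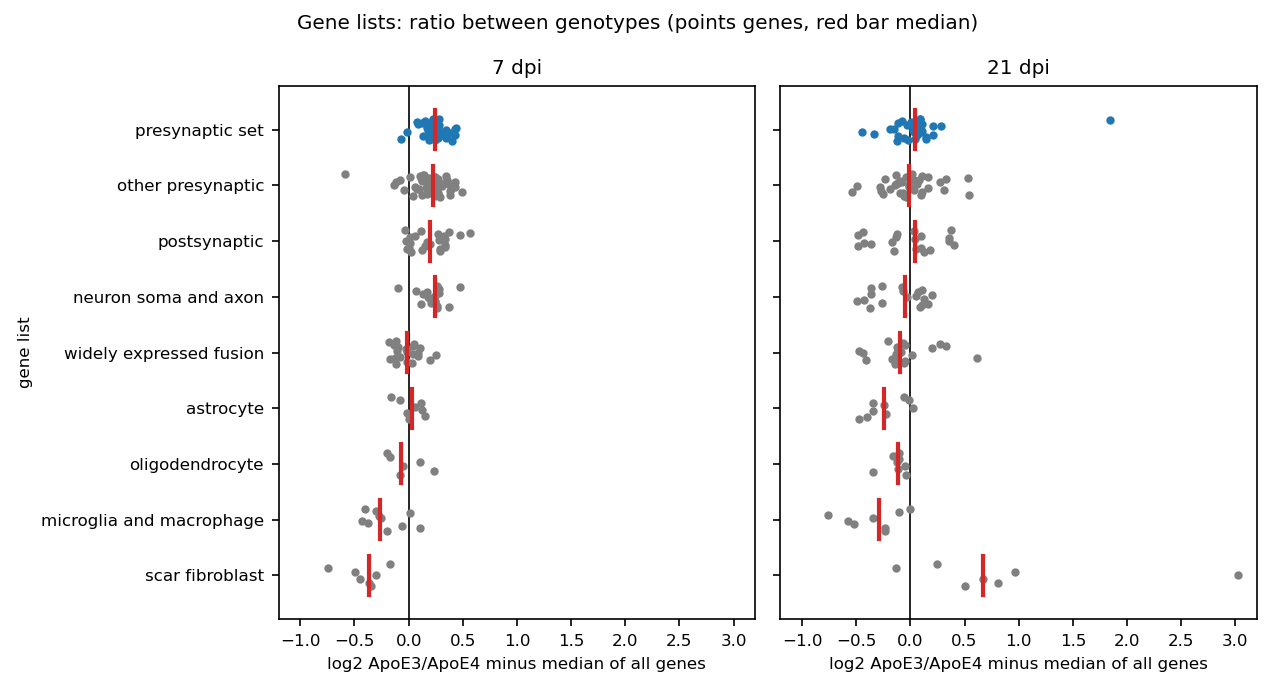
Log2 ratio of ApoE3 to ApoE4 relative to the median of all genes for the presynaptic set and 8 other gene lists at 7 dpi (left) and 21 dpi (right), 1 point per gene, with the median of each list as a red bar. At 7 dpi the presynaptic, postsynaptic and neuronal lists have medians of 0.20 to 0.24, and the microglia and macrophage list and the fibroblast list have medians of -0.26 and -0.37. With the shift of all genes left in, the medians of the first 8 lists at 21 dpi would be negative and that of the fibroblast list positive.

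At 21 dpi the medians of the other lists were -0.013 for the further presynaptic genes over 37 genes, 0.038 for the postsynaptic genes over 20, -0.051 for the neuronal soma and axon genes over 18 and -0.10 for the widely expressed fusion genes over 20. As for the presynaptic set, these lie near the median of all genes, and with the shift left in each was lower in ApoE3. Astrocyte, oligodendrocyte and microglia and macrophage lists had medians of -0.24, -0.11 and -0.29, with sums of 14021 FPKM, 228065 FPKM and 575 FPKM in ApoE3 against 24327 FPKM, 321456 FPKM and 1062 FPKM in ApoE4. The fibroblast list stood at 0.67 with 119 FPKM against 75.1 FPKM. Without DCN, singled out after its values of 61.9 FPKM and 9.37 FPKM were seen, the median was 0.59 and the sums turned to 57.3 FPKM against 65.7 FPKM. The motor neuron list stood at -0.20 over 4 genes with 40.8 FPKM against 71.1 FPKM.

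The table at 21 dpi also differed in genes of tissues around the cord. Schwann cell genes had 9 of 11 with a row, all above the median with a median of 2.07. Among the most abundant, SOX10 had 77.9 FPKM in ApoE3 against 91.9 FPKM in ApoE4, and EGR2 had 73.0 FPKM against 46.1 FPKM. Sensory ganglion genes had 11 of 13 above the median with a median of 1.91, and TRPV1 and MRGPRD were listed at 0 in ApoE4 and at 1.61 FPKM and 1.80 FPKM in ApoE3. Their summed level, 985 FPKM against 1135 FPKM, was carried by CALCA, at 702 FPKM against 829.5 FPKM, with TAC1 at 78.8 FPKM against 188 FPKM, and PRPH had no row. SLC17A7, the presynaptic gene with the largest ratio at 21 dpi, differed in the same direction as these 2 lists, and their part in its ratio was not tested.

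Genes of skeletal muscle and liver differed the other way. Muscle genes, led by TNNT3, MYL1 and ACTA1, summed to 33.6 FPKM in ApoE3 and 693 FPKM in ApoE4, with 6 of 6 below the median at a median of -2.90 and MYH4 listed at 0 in ApoE3. Liver genes, led by APOA2, APOC3 and APOA1, summed to 10.5 FPKM and 114 FPKM over 6 genes, with a median of -2.22. Erythrocyte genes, led by HBA-A1 and HBB-BT, summed to 651 FPKM and 818 FPKM over 3 genes, with a median of 0.17, and HBB-BS had a row at 7 dpi only. At 7 dpi the muscle list stood at 0.27 over 5 genes with 64.5 FPKM in ApoE3 and 42.2 FPKM in ApoE4, the sensory ganglion list at 0.31 over 6 with 596 FPKM and 461 FPKM, the Schwann cell list at -0.12 over 6 with 143 FPKM and 169 FPKM, the erythrocyte list at 0.055 over 4 with 365 FPKM and 353 FPKM, and no liver gene had a row.

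Levels at 21 dpi can be set beside those at 7 dpi for the 29 presynaptic genes with a row at both. The authors compared genotypes separately at each time point, so this is a description of levels across separate comparisons. It uses the same 4 values per gene as the ratios above. The median change of all genes from 7 to 21 dpi was 0.089 in ApoE3 and 0.53 in ApoE4 on the log2 scale, and changes are given relative to it. The presynaptic median was 0.52 in ApoE3, with 21 of 29 genes above the change of all genes, and 0.71 in ApoE4, with 24 of 29 above. Past 1.3-fold, 15 genes were higher at 21 dpi and 4 at 7 dpi in ApoE3, where 26.6% and 27.7% of all genes were. In ApoE4 19 were higher at 21 dpi and 1 at 7 dpi, where 26.1% and 28.6% of all genes were. With the shift left in, the ApoE4 counts were 27 and 0, beside 59.0% and 10.9% of all genes, and the ApoE3 counts 17 and 2, beside 31.3% and 23.6%. Relative to the neuronal soma and axon list, whose medians were 0.71 in ApoE3 and 0.95 in ApoE4, the direction turned: the presynaptic medians were -0.18 and -0.24, with 21 of 29 genes below in each genotype. Other lists, relative to the change of all genes, are given as medians in ApoE3 and ApoE4. Further presynaptic genes had 0.27 and 0.52, and postsynaptic genes -0.13 and 0.21. Widely expressed fusion genes had -0.32 and -0.18, astrocyte genes -0.51 and -0.27 and oligodendrocyte genes 0.050 and 0.20. Microglia and macrophage genes had -2.57 and -2.14, and fibroblast scar genes -2.79 and -3.59. Their part in the presynaptic change was not tested.

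The summed FPKM of these 29 genes was 9256 in ApoE3 and 7445 in ApoE4 at 7 dpi, and 15077 and 20148 at 21 dpi. As a share of the FPKM of the 10879 genes listed at both time points, these sums were 0.774% in ApoE3 and 0.621% in ApoE4 at 7 dpi, and 1.04% and 1.03% at 21 dpi. The share thus differed between genotypes at 7 dpi and was nearly equal at 21 dpi. Dividing by the summed FPKM also removes a shift shared by all genes, so the share is not independent of the centring. MBP alone made up 10.1% to 14.3% of that sum, depending on the group. Without MBP the shares were 0.861% in ApoE3 and 0.695% in ApoE4 at 7 dpi, and 1.21% and 1.20% at 21 dpi.

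RAB3A had the largest change of the set, 1.66 in ApoE3 and 1.64 in ApoE4, followed by SYP with 1.22 and 1.47 and VAMP1 with 1.02 and 1.27. SYN3 was the lowest, at -0.87 in ApoE3 and -0.48 in ApoE4. The gain was uneven across roles. The SNARE genes had medians of 0.71 and 0.84 in ApoE3 and ApoE4, and the vesicle membrane genes 0.66 and 0.74, whereas the 6 active zone genes had -0.15 and -0.043, with 1 gene above the change of all genes in ApoE3 and 2 in ApoE4. RIMS2 was the lowest active zone gene in ApoE3 at -0.42, beside -0.12 in ApoE4, and BSN was above in both, at 0.10 and 0.069. With the shift left in, the active zone median was -0.066 in ApoE3 and 0.48 in ApoE4.

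**Figure D4:**
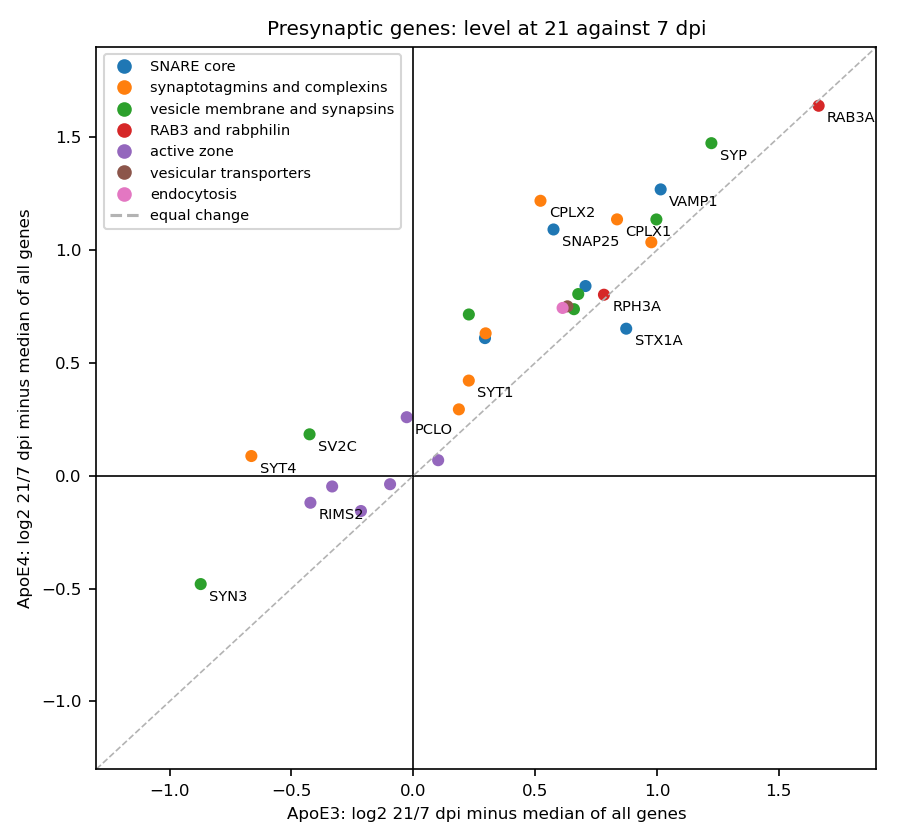
Log2 level at 21 over 7 dpi relative to the median of all genes in ApoE3 (horizontal) and ApoE4 (vertical), 1 point per presynaptic gene listed at both time points, coloured by role, with equal change as a dashed line. Of 29 points, 26 lie above the line, and STX1A, RAB3A and BSN lie below it. The medians of the neuronal soma and axon list, 0.71 in ApoE3 and 0.95 in ApoE4, would also lie above it. With the shift of all genes left in, all 29 genes would lie above 0 in ApoE4, and relative to neuronal genes 21 of 29 would lie below 0 in each genotype.

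The active zone genes are long, and length went with the change over time. Gene length in GENCODE M21 had a median of 417 kb for the 6 active zone genes, 30.4 kb for the 5 SNARE genes and 24.3 kb for 10705 genes listed at both time points. Across the 29 presynaptic genes, Spearman's rho between gene length and the change from 7 to 21 dpi was -0.64 in ApoE3 and -0.68 in ApoE4. Across all genes whose mean FPKM reached 1 it was -0.28 over 10668 genes in ApoE3 and -0.20 over 10691 genes in ApoE4. The relation was not particular to this length, the genomic span: with exonic length rho was -0.66 and -0.65 in the set and -0.34 and -0.29 across all genes, and with mean FPKM it was 0.30 and 0.43 in the set and 0.14 and 0.18 across all genes. Genes are not independent replicates, all points of a genotype share the same libraries, and the part of length in the change was not tested. The longest 2676 genes, of at least 60.3 kb, include 16 presynaptic genes, whose median change was 0.21 in ApoE3 and 0.36 in ApoE4, beside -0.22 and -0.15 for all 2676. Several genes departed from the pattern. SYT4 is short, at 9.60 kb, with changes of -0.66 in ApoE3 and 0.087 in ApoE4. Long genes with positive changes in both genotypes included SYT1 at 513 kb, with 0.23 and 0.42, AMPH at 203 kb, with 0.61 and 0.74, and SYN2 at 147 kb, with 0.66 and 0.74. For the ratio between genotypes, rho with gene length was 0.11 over 37 presynaptic genes at 7 dpi, beside 0.19 over 13750 genes, and -0.27 over 30 presynaptic genes at 21 dpi, beside -0.050 over 11188 genes.

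**Figure D5:**
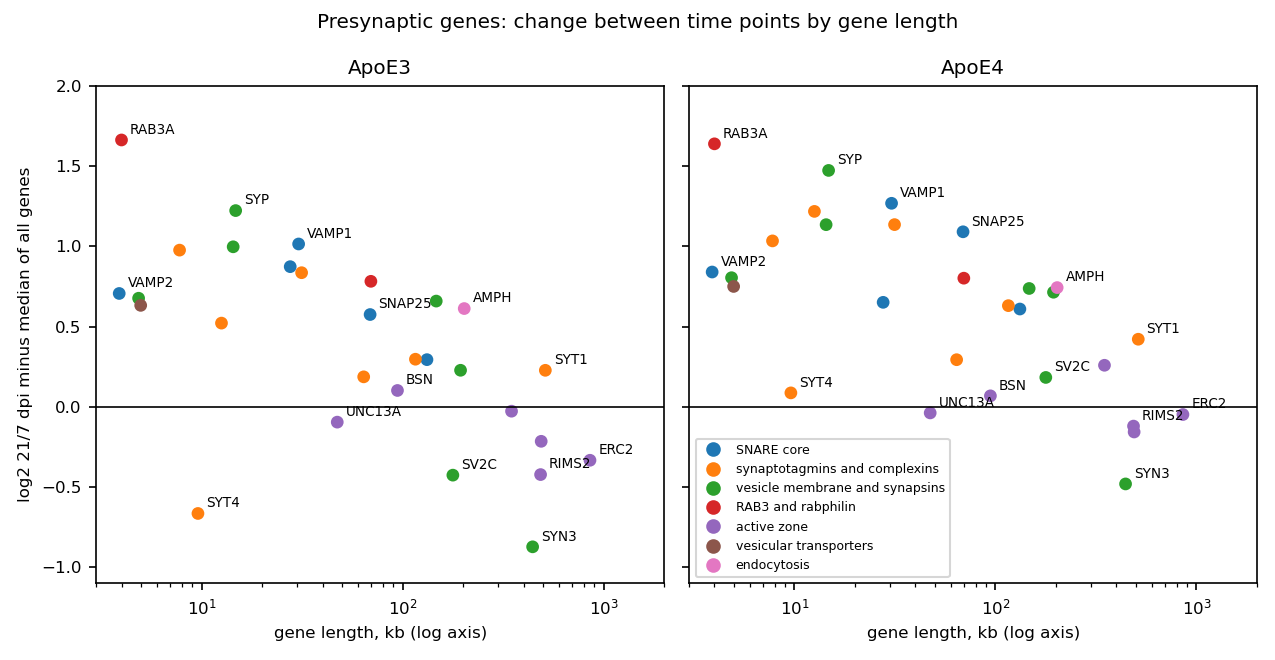
Log2 level at 21 over 7 dpi relative to the median of all genes against gene length in kb on a log axis, for ApoE3 (left) and ApoE4 (right), 1 point per presynaptic gene listed at both time points. SYP (14.8 kb) and VAMP1 (30.4 kb), both shorter than the set's median of 69.0 kb, lie high. Long genes such as RIMS2 (486 kb) and SYN3 (444 kb) lie below 0. With the shift of all genes left in, no point would lie below 0 in ApoE4.

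The levels of the set also differed in how the genotypes ranked at the 2 time points. Of the 29 genes, 26 had a higher relative ratio of ApoE3 to ApoE4 at 7 than at 21 dpi, and 3, STX1A, RAB3A and BSN, had a lower one, where 50.9% of all genes had a higher one at 7 dpi. The median difference was 0.21 and the range was -0.21 to 0.76. This was not particular to the set. The median of the neuronal soma and axon list went from 0.24 at 7 dpi to -0.051 at 21 dpi, and that of the 29 genes from 0.24 to 0.033. Across the 29 genes the ratios at the 2 time points had a Pearson's r of -0.32 and a Spearman's rho of -0.28, a description across genes that are not independent replicates. The genes farthest to the ApoE3 side at 7 dpi were thus not those farthest to that side at 21 dpi.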

How the data were processed

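The authors extracted RNA from lesion segments, made TruSeq v2 libraries, sequenced single-end reads on an Illumina HiSeq and down-sampled all samples to equal read numbers. The submitters' processing notes name STAR 2.5.4b, Bowtie2 2.1.10, SAMtools 0.1.7 and Cuffdiff 1.3.0. The genome build and annotation are not given in the sources used here. The authors deposited 1 FPKM value per gene and group, plus 1, with mice pooled by Cuffdiff, and 1 was subtracted here. The authors' comparison columns hold p-values, q-values, calls and fold changes. Of these only the fold was used, together with the comparison names, to read which value belonged to ApoE3.

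Symbols on 2 rows of a time point were averaged. Log2 ratios used a pseudocount of 1, minus the median ratio over genes whose mean FPKM reached 1. With 1 value per group no test was run. The presynaptic genes and all lists were chosen with earlier results of these data known. In each role the gene with the highest mean FPKM and each gene past 1.3-fold were to be given in full, and from every other list the 3 genes with the highest mean FPKM, of which some are not reported here. All 40 genes could be named, as could markers listed at 0, and the values of the other presynaptic genes were added after they were seen. TIMP3 was chosen for its overlap with SYN3. The relation to gene length was chosen after the values were seen. Gene lengths came from GENCODE M21. The alternatives were no centring, centring on neuronal genes, a pseudocount of 0.1, a fold of 1.5, a minimum level, and genotypes by column number. The computation was tested on simulated data. Tables were handled with pandas 2.3.3 and numpy 2.4.6, figures drawn with matplotlib 3.10.9 and rank correlations taken from scipy 1.17.1, all under Python 3.11.15.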

Additional observations from a re-analysis of the deposited data

Results flagged for a closer look

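A total of 12 of the 29 presynaptic genes with a row at both time points lay on opposite sides of the median of all genes at 7 and 21 dpi, where 51.8% of all genes did, so the share is no larger than the background. The difference between the time points was not tested, since each group has 1 value. In all 12 except STX1A, ApoE3 was on the higher side at 7 dpi and on the lower side at 21 dpi, relative to the median of all genes. Before the shift at 21 dpi is removed, 28 of the 29 genes, all but STX1A, have the higher level in ApoE3 at the early and in ApoE4 at the late time point, beside 52.2% of all genes on opposite sides, and STX1A is higher in ApoE4 at both time points. The relative log2 ratio of ApoE3 to ApoE4 at 7 dpi minus that at 21 dpi was 0.76 for SYT4, 0.71 for CPLX2, 0.62 for SV2C, 0.53 for SNAP25 and 0.50 for SV2B. It was 0.35 for SYT2, 0.33 for NSF, 0.31 for RIMS2, 0.30 for PCLO, 0.30 for ERC2 and 0.27 for VAMP1. For STX1A it was -0.21.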

How the results depend on the processing

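The 8 results (4 counts of presynaptic genes past 1.3-fold and 4 medians) kept their direction with a pseudocount of 0.1, where the counts were equal and each median moved by less than 0.1, that at 21 dpi from 0.039 to 0.061. A minimum mean FPKM of 1 removed no presynaptic gene and so tested nothing. Without centring, the median ratio at 21 dpi turned from 0.039 to -0.38, the count higher in ApoE4 at 21 dpi moved from 1 to 15, and the median change over time in ApoE4 moved from 0.71 to 1.24. Each follows from the shift of all genes. Centred on neuronal soma and axon genes, the median at 7 dpi turned from 0.24 to -0.00036, the median at 21 dpi moved from 0.039 to 0.090, the count higher in ApoE3 at 7 dpi went from 5 to 0, and the median changes over time turned from 0.52 to -0.18 in ApoE3 and from 0.71 to -0.24 in ApoE4. With genotypes read by column number, the medians were -0.24 at 7 dpi and -0.039 at 21 dpi, and the counts at 7 dpi were 0 higher in ApoE3 and 5 higher in ApoE4, by construction. At a fold of 1.5 the count higher in ApoE3 at 7 dpi was 0, where 1.22% of all genes passed, and that higher in ApoE4 at 21 dpi was 0, where 3.67% did. Limiting all genes to those listed at both time points, an alternative chosen after seeing the data, took the count higher in ApoE3 at 21 dpi from 1 to 0, since SLC17A7 has a row at 21 dpi only. No paired analysis was possible because each group has 1 value. Read counts per gene were not used here, and the low genes are the least certain.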
